A study of Mus musculus with 12 samples.

Results

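Transcripts of 33 cell cycle genes were followed in mouse retina, out of 40202 genes in the expression table. The genes were picked by symbol as textbook markers of proliferation: 13 act at the G1/S boundary or in S phase, and 20 act in mitosis. All 33 were found in the table. Retinal RNA of C57BL/6J mice had been sequenced in 12 libraries, with 3 in each of 4 groups. The groups were retina with laser-induced choroidal neovascularisation (CNV) after cp-asiNRL, CNV retina after vehicle, wild-type (WT) retina after cp-asiNRL and WT retina after vehicle. cp-asiNRL is a cell-penetrating asymmetric interfering RNA directed at Nrl, the transcription factor that sets rod fate. Every eye received 1 µl into the vitreous, either 6 µg/µl cp-asiNRL or 0.5X PBS as vehicle, so the WT vehicle retina was itself injected. Laser CNV is an injury model in which burns through Bruch's membrane draw vessels from the choroid. The WT columns of the expression table carry the letters N-I, whose meaning is not given, and were assigned to WT because the other columns are named CNV, so every WT value rests on that assignment. The labels give neither the animals per library nor the time from laser or injection to collection, and the p-values therefore speak of library-to-library spread alone, which may be technical.

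A cell enters S phase when cyclin E with its kinase releases E2F factors, which switch on the genes for DNA replication. The MCM helicase then unwinds DNA, PCNA clamps the polymerases to it, and enzymes such as ribonucleotide reductase and thymidylate synthase supply nucleotides. Cyclins A and B with CDK1 drive mitosis, in which kinesins, centromere proteins and checkpoint kinases sort the chromosomes. Neurons of the adult retina have left the cycle, whereas microglia, infiltrating macrophages, endothelium and Müller glia can divide after injury. Several replication genes also serve DNA repair in cells that do not divide.

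Each library held 51298466 to 69394486 reads in genes. Nrl, the targeted gene, was at 397.3 to 467.5 CPM (reads scaled to the library total, after trimmed-mean scaling) with cp-asiNRL and 504.8 to 560.1 CPM with vehicle in WT retina (exact two-sided permutation p = 0.1, the smallest that 3 against 3 allows). In CNV retina it was at 263.3 to 483.2 CPM with cp-asiNRL and 422.7 to 523.7 CPM with vehicle (exact test over permutations, p = 0.3). Nrl went against the label in 1 library: the library labelled replicate 2 of CNV cp-asiNRL had 483.2 CPM, within the range of CNV vehicle. Calls, counts of genes without overlap and the main ratios that involve this group are therefore also given without that library. Rod markers were abundant in every library (8 genes summing to 10890 to 20660 CPM), as the tissue label says.

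The 33 genes together took 7587 to 10563 reads per library, or 0.0142% to 0.0156% of the library. Most of these reads came from few genes: the 6 genes with a mean of at least 500 reads (Pcna, Tyms, Ccne2, Ccna2, Bub1b and Kif20a) held 64.2% to 69.7% of them. At the other end, 14 genes had a mean under 50 reads and 6 had a mean under 10 reads. Among those 14 were Mki67, Top2a, Cdk1, Plk1, Bub1, Birc5, Cdc20, Aurkb and Ccnb1, which are among the most specific marks of dividing cells. In CPM per kilobase of gene span, Pcna was highest (mean 3.13 over the 12 libraries), Ccna2 followed at 2.77, and Bub1 was lowest at 0.00397. Low levels were thus not shared by all members, since 3 of the 6 highest (Ccna2, Bub1b and Kif20a) are mitosis genes. High values need not be the gene's own, since 11 of the 33 genes overlap another gene in the table. The library kit marks strand, but whether the counting used it is not given in the sources used here, so reads in the shared stretches cannot be assigned to either gene. Kif20a shares 4930 bp of its 8654 bp span with Cdc23 on the opposite strand, Ccne2 shares 5622 of 14291 bp with Ints8, and Ccna2 shares 863 of 8174 bp with Exosc9, so their levels are uncertain. The other 22 genes have no overlapping gene.

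**Figure D1:**
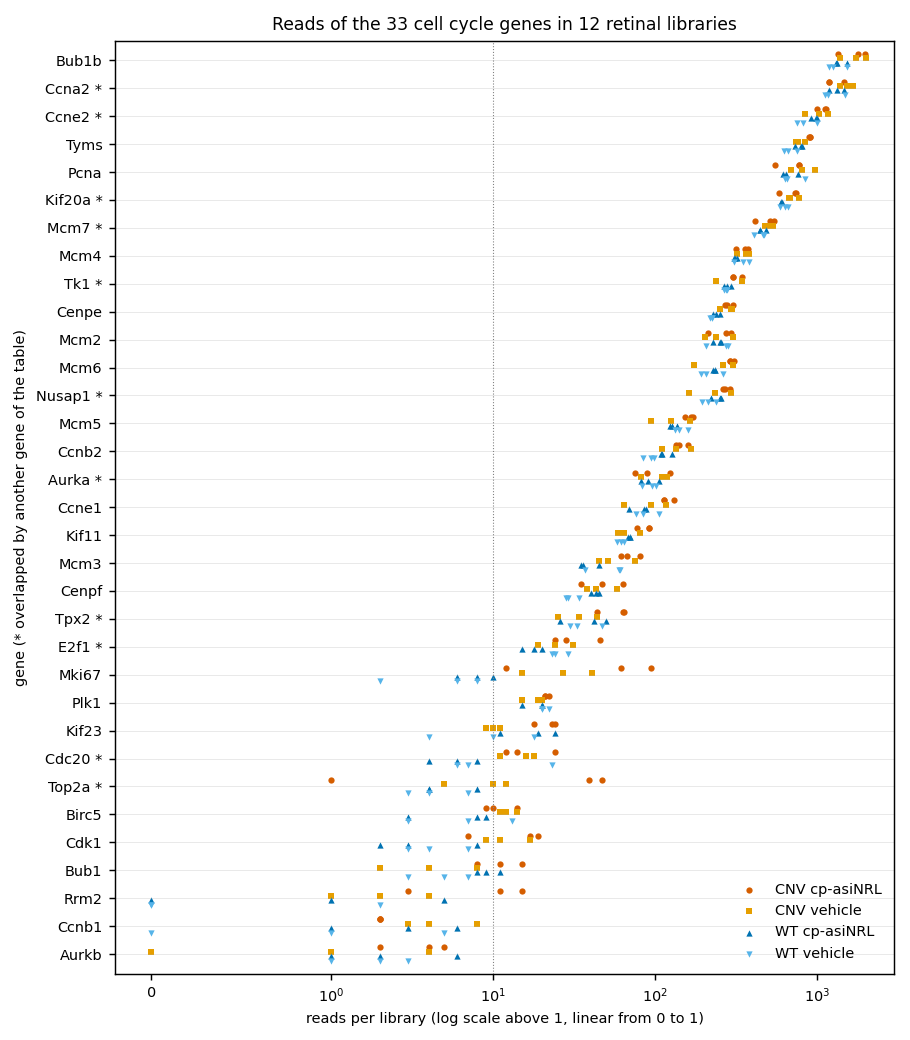
Reads of each cell cycle gene in each library (x axis, log scale above 1 read), with genes ordered by mean reads and coloured by group; the dotted line stands at 10 reads and an asterisk marks a gene overlapped by another. Bub1b and Ccna2 exceed 1000 reads in all libraries, while Rrm2, Ccnb1 and Aurkb reach 0 in at least 1 library.

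Mki67, whose product Ki-67 coats mitotic chromosomes and is the standard proliferation antigen, had 95, 12 and 62 reads in CNV retina with cp-asiNRL. CNV retina with vehicle had 15, 41 and 27 Mki67 reads. WT retina had 8, 10 and 6 reads with cp-asiNRL and 2, 6 and 8 reads with vehicle. In CPM, all 6 CNV libraries (0.181 to 1.576) lay above all 6 WT libraries (0.039 to 0.172). Among the 33 genes, Mki67 was the only gene of which this was true, and the margin was narrow: the lowest CNV value came from the library labelled replicate 2 of CNV cp-asiNRL. The share of all genes that separate in this way was not counted, so this has no background to be set against. Mki67 lies on chromosome 7 (135291513 to 135318286, minus strand, GRCm39) with no overlapping gene.

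Top2a, the topoisomerase that untangles replicated chromosomes, had 47, 1 and 39 reads in CNV retina with cp-asiNRL, against 5, 12 and 10 reads in CNV retina with vehicle. WT retina had 4, 8 and 4 Top2a reads with cp-asiNRL and 3, 7 and 4 reads with vehicle. The CNV cp-asiNRL group thus held both the 2 highest libraries and the lowest library of all 12. Cdk1, the kinase that starts mitosis, had 19, 7 and 17 reads in CNV retina with cp-asiNRL and 9, 17 and 11 reads in CNV retina with vehicle. WT retina had 3, 8 and 2 Cdk1 reads with cp-asiNRL and 7, 4 and 3 reads with vehicle. Rrm2, the S phase subunit of ribonucleotide reductase, had 11, 3 and 15 reads in CNV retina with cp-asiNRL and 2, 4 and 1 reads in CNV retina with vehicle. WT retina had 5, 1 and 0 Rrm2 reads with cp-asiNRL and 0, 2 and 0 reads with vehicle. In each of these genes the CNV cp-asiNRL replicates 1 and 3 stood above every WT library, and the library labelled replicate 2 did not for Top2a, Cdk1 and Rrm2.

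The remaining very low genes showed no such pattern. Ccnb1, the cyclin partner of CDK1, had 2 reads in each CNV cp-asiNRL library, 4, 8 and 3 in CNV vehicle, 6, 3 and 1 in WT cp-asiNRL and 1, 5 and 0 in WT vehicle. Aurkb, a kinase of the chromosomal passenger complex, had 5, 2 and 4 reads in CNV cp-asiNRL, 0, 4 and 1 in CNV vehicle, 6, 1 and 2 in WT cp-asiNRL and 3, 2 and 1 in WT vehicle. Bub1, a spindle checkpoint kinase, had 15, 8 and 11 reads in CNV cp-asiNRL, 2, 8 and 4 in CNV vehicle, 11, 8 and 9 in WT cp-asiNRL and 3, 5 and 7 in WT vehicle. A count of 0 allows up to 3 reads, which is 0.0499 to 0.0585 CPM before trimmed-mean scaling in the 4 libraries where a member was at 0, for counting error only. Rrm2, Ccnb1, Aurkb and Bub1 were too low for the filter and were not tested, which left 29 genes. The filter asks that 3 or more libraries reach the CPM that 10 reads give in a library of median size. Mki67, Top2a and Cdk1 met it only through CNV libraries (6, 3 and 4 of them), so among tested genes they could hardly fail to be higher there. Cdc20 and Birc5 met it chiefly through CNV libraries (6 and 5 of them), with 1 WT vehicle library each. Top2a dropped out when CNV cp-asiNRL replicate 1 or 3 or CNV vehicle replicate 2 was left out.

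**Figure D2:**
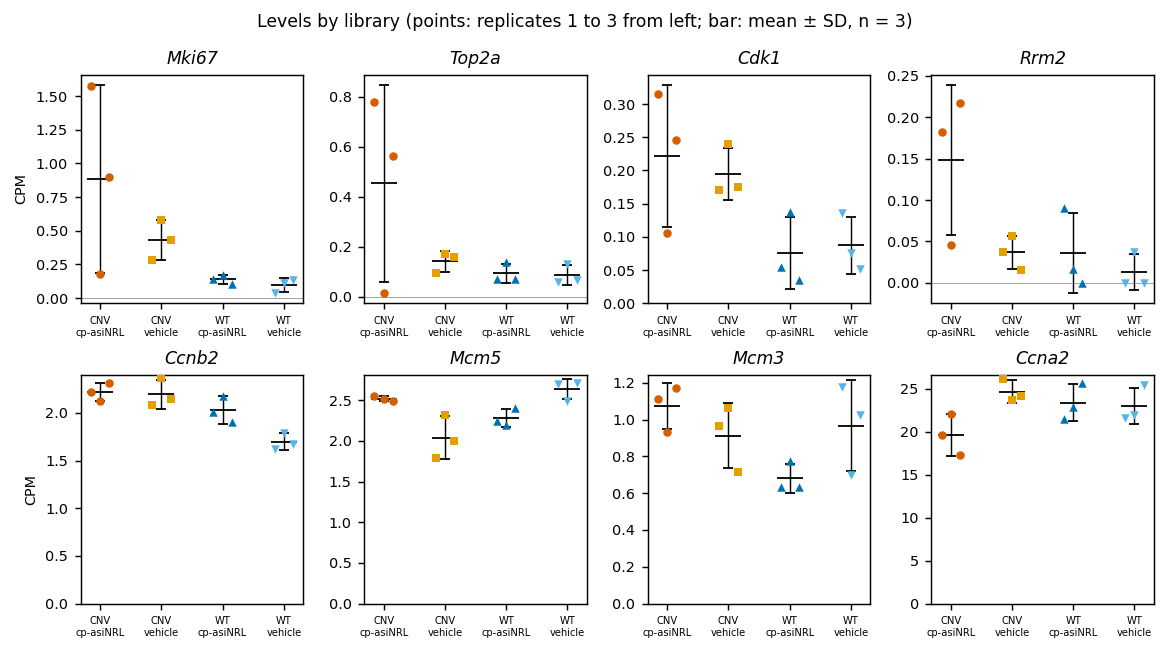
CPM (y axis, from 0) of 8 genes in the 4 groups; points are replicates 1 to 3 from left to right, and the bar gives the mean ± SD (n = 3). The library labelled replicate 2 of CNV cp-asiNRL, the middle point of its group, lies far below replicates 1 and 3 for Mki67 (0.181 CPM against 1.576 and 0.897 CPM) and Top2a.

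The promoters of Mki67, Top2a and Cdk1, chosen after their values were seen, are shown beside that of Mcm6, a subunit of the replicative helicase, because mitotic and replication genes are known to be switched on through different promoter elements. RefSeq promoters (GRCm38.p6) were at hand for 27 of the 33 genes, and 250 bases before each start were searched on both strands. The elements were the CCAAT box (CCAAT), the cell cycle homology region of mitotic genes (CHR; TTTGAA or TTTAAA) and E2F motifs (TTTCCCGC, TTTGGCGC, TTTCGCGC or TTTGCCGC). Capitals mark the matches, each sequence reads 5′ to 3′ along the gene's strand, and all 4 genes lie on the minus strand. Mki67 is at chr7:135716380-135716629, Top2a at chr11:99024190-99024439, Cdk1 at chr10:69352913-69353162 and Mcm6 at chr1:128359706-128359955.
Mki67: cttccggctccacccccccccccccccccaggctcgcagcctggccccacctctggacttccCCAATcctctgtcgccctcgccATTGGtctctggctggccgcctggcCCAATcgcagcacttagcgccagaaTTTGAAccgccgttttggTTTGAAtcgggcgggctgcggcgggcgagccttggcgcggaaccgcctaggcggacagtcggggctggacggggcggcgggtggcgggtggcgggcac
Top2a: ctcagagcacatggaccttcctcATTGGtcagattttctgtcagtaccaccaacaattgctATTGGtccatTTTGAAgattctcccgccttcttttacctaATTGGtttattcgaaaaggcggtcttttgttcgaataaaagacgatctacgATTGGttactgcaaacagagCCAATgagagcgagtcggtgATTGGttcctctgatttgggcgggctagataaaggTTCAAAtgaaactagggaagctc
Cdk1: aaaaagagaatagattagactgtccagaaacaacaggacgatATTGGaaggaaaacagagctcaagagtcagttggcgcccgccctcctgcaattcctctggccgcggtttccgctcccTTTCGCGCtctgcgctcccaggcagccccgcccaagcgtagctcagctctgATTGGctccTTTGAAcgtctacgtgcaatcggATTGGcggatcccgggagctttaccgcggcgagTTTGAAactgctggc
Mcm6: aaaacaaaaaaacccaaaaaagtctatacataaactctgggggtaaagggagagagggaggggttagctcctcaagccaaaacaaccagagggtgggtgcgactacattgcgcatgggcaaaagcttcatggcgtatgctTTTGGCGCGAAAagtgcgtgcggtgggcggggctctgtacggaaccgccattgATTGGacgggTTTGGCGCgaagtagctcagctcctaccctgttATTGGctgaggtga

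The Mki67 window held 3 CCAAT matches and 2 CHR matches, the Top2a window 6 and 2, and the Cdk1 window 3 and 2 with 1 E2F match. The Mcm6 window held 2 CCAAT matches, no CHR match and 3 E2F matches, of which a pair overlap each other. The Rrm2 window, not printed, held 1 CCAAT match and no match of the other kinds. No match of any kind overlapped a match of another kind in these windows. Of the 16 mitosis genes with a promoter, 87.5% held a CCAAT match, 62.5% a CHR match and 6.2% an E2F match. Of the 11 S phase and G1/S genes, 63.6% held a CCAAT match, 36.4% a CHR match and 27.3% an E2F match. Over all 27025 genes of the promoter table these shares were 37.5%, 28.1% and 2.2%. A match is a run of letters and not a measured binding site.

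**Figure D3:**
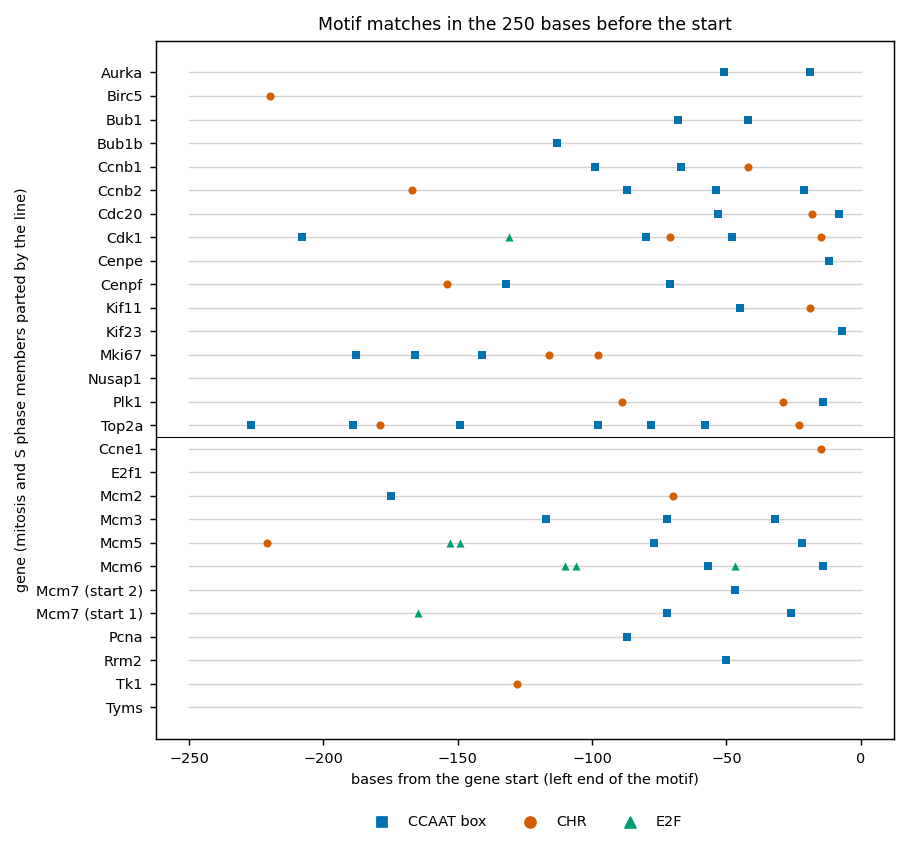
Positions of the CCAAT, CHR and E2F matches in the 250 bases before the start of each gene with a promoter (x axis, bases from the start; Mcm7 has a pair of listed starts). Mitosis genes stand above the line and S phase and G1/S genes below it, and CCAAT matches occur in 14 of the 16 mitosis genes.

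Laser CNV was first compared with WT retina under vehicle, which asks what the injury did without the interfering RNA. With limma on log2(CPM + 1) over all 12 libraries and Benjamini-Hochberg adjustment over 25619 genes, 0 of the 29 genes tested were called at an adjusted p of 0.05, as were 0% of all genes. At an unadjusted p of 0.05, 2 of the 29 passed, against 7.67% of all genes. limma voom on the recovered reads and voom with sample quality weights also called 0, against 0.133% of all genes with the weights. Mki67 averaged 0.430 ± 0.148 CPM in CNV vehicle retina and 0.0962 ± 0.0512 CPM in WT vehicle retina (SD, n = 3 each), a ratio of 4.48. Its groups did not overlap, yet its log2 change of 0.38 (SE 0.19) had an adjusted p of 0.66. Cdk1 averaged 0.195 ± 0.0393 CPM in CNV vehicle and 0.0873 ± 0.0432 CPM in WT vehicle, also without overlap (log2 change 0.14, SE 0.07, adjusted p = 0.676 by limma). Ccnb2, a B-type cyclin with no overlapping gene, was at 2.077, 2.361 and 2.143 CPM in CNV vehicle, against 1.623, 1.794 and 1.673 CPM in WT vehicle. Each CNV vehicle library exceeded each WT vehicle library, and its log2 change was 0.24 (SE 0.08, limma adjusted p = 0.58). Mcm5, another helicase subunit, was at 1.794, 2.318 and 2.0 CPM in CNV vehicle and 2.705, 2.492 and 2.715 CPM in WT vehicle. Here each CNV vehicle library lay below each WT vehicle library (log2 change -0.26, SE 0.08, limma adjusted p = 0.574). Altogether 3 of the 29 genes lay above and 1 lay below without overlap, against 7.54% and 8.04% of all genes. Of the 3, Mki67 and Cdk1 had met the filter only through CNV libraries, so they could hardly lie lower there. The median log2 change over all 33 genes was -0.0056, and over all genes tested -0.0006.

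The same laser comparison under cp-asiNRL also gave 0 called genes among the 29, with 0% called over the whole table. At an unadjusted p of 0.05, limma passed 7 of the 29, against 17.2% of all genes, voom called 0, and voom with sample quality weights called 4 (13.8%), against 17.2% of all genes. Mki67 averaged 0.885 ± 0.698 CPM in CNV cp-asiNRL and 0.141 ± 0.0333 CPM in WT cp-asiNRL (SD, n = 3 each), a ratio of 6.29, or 8.79 without the library labelled replicate 2. Its log2 change was 0.65 (SE 0.19, limma adjusted p = 0.211). Mcm3, a helicase subunit, was at 1.112, 0.934 and 1.172 CPM in CNV cp-asiNRL and 0.633, 0.773 and 0.633 CPM in WT cp-asiNRL. Its groups did not overlap (log2 change 0.30, SE 0.10, limma adjusted p = 0.211). E2f1, which activates replication genes, was at 0.465, 0.361 and 0.665 CPM in CNV cp-asiNRL and 0.326, 0.344 and 0.264 CPM in WT cp-asiNRL, so that the groups did not overlap but nearly met. Ccne1, the cyclin that opens S phase, was at 1.875, 1.717 and 1.895 CPM in CNV cp-asiNRL and 1.556, 1.512 and 1.214 CPM in WT cp-asiNRL, without overlap. Their log2 changes were 0.19 (SE 0.08, limma adjusted p = 0.253) for E2f1 and 0.22 (SE 0.09, limma adjusted p = 0.256) for Ccne1. Ccna2 went the other way, at 19.6, 22.1 and 17.2 CPM in CNV cp-asiNRL and 21.5, 22.9 and 25.7 CPM in WT cp-asiNRL, and these groups overlapped (log2 change -0.24, SE 0.09, limma adjusted p = 0.229). Without overlap, 7 of the 29 genes lay above (Mki67, Mcm3, Mcm5, Mcm6, Ccne1, E2f1 and Cdc20) and 0 below, against 8.83% and 8.37% of all genes. Without the library labelled replicate 2, 14 lay above and 6 below, against 26.4% and 25.3% of all genes, and 8 passed an unadjusted p of 0.05, against 32.4%. Mki67 is among the 7, and Mki67, Top2a and Cdk1 are among the 14 and the 8. They had met the filter only through CNV libraries, so they could hardly lie lower there. Cdc20, among the 7 and the 14, and Birc5, among the 14, had met it through CNV libraries and 1 WT vehicle library each. No WT cp-asiNRL library reached the limit for either gene, so the shares are not like for like. The median log2 change of the 33 genes was 0.0204, and of all genes 0.0074.

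The library labelled replicate 2 of CNV cp-asiNRL decided these calls. Without it, limma called 6 of the 29 genes (20.7%) for CNV against WT under cp-asiNRL, against 17.9% of all genes, a share near the background. Of these 6, Mki67, Top2a and Cdk1, with log2 changes of 0.96, 0.61 and 0.25, had met the filter only through CNV libraries, so their p-values are not given. Mcm3 was at 0.35 (limma adjusted p = 0.0352), E2f1 at 0.25 (0.0418) and Ccna2 at -0.33 (0.0152). Ccna2 overlaps Exosc9, and reads in their shared stretch cannot be assigned to either gene. With library quality weights, which count an outlying library less, 5 of the 29 (17.2%) were called with all libraries kept (Mki67, Top2a, Cdk1, Mcm3 and Ccna2), against 19.9% of all genes.

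cp-asiNRL was next compared with vehicle within CNV retina. limma called 0 of the 29 genes, against 0.0468% of all genes. voom also called 0, and voom with sample quality weights called 3 (10.3%), against 11.4% of all genes. At an unadjusted p of 0.05, 7 of the 29 passed, against 16.1% of all genes. Ccna2 was at 19.6, 22.1 and 17.2 CPM in CNV cp-asiNRL and 26.2, 23.6 and 24.1 CPM in CNV vehicle, with no overlap (log2 change -0.32, SE 0.09, limma adjusted p = 0.212). Exosc9, which overlaps Ccna2 on the opposite strand, was at 17.5, 19.3 and 18.1 CPM in CNV cp-asiNRL. It was at 23.2, 20.9 and 20.7 CPM in CNV vehicle, so it was lower without overlap too. Pcna, the polymerase clamp, was at 9.14, 11.7 and 11.2 CPM in CNV cp-asiNRL and 13.1, 13.8 and 12.9 CPM in CNV vehicle. Each cp-asiNRL library again lay below each vehicle library (log2 change -0.29, SE 0.10, limma adjusted p = 0.233). Mcm5 was at 2.555, 2.515 and 2.488 CPM in CNV cp-asiNRL and 1.794, 2.318 and 2.0 CPM in CNV vehicle, so that each cp-asiNRL library lay above (log2 change 0.22, SE 0.08, limma adjusted p = 0.26). Kif23, a kinesin of the dividing cell's midzone, had 23, 24 and 18 reads in CNV cp-asiNRL and 10, 11 and 9 reads in CNV vehicle, a ratio of mean CPM of 2.06 (limma adjusted p = 0.285). Mki67 and Top2a had ratios of 2.05 and 3.21 (2.87 and 4.77 without the library labelled replicate 2), with groups that overlapped through the library labelled replicate 2 of CNV cp-asiNRL. Without overlap, 5 of the 29 genes lay above (Mcm5, Mcm6, Ccne1, Kif11 and Kif23) and 2 below (Pcna and Ccna2), against 6.32% and 6.73% of all genes. Without the library labelled replicate 2, 12 lay above and 5 below, against 21.8% and 23.2% of all genes, and 9 passed an unadjusted p of 0.05, against 32.0%. The 12 include Mki67, Top2a and Cdk1, and the 9 include Mki67 and Top2a. Mki67, Top2a and Cdk1 had met the filter only through CNV libraries, so these shares are not like for like. The median log2 change of the 33 genes was 0.0331, and of all genes 0.0013.

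Leaving out the library labelled replicate 2 of CNV cp-asiNRL gave 4 called genes of 29 (13.8%) in this comparison, against 17.5% of all genes, so the share of members was not above the background. Top2a had a log2 change of 0.55 and Mki67 of 0.63. Both had met the filter only through CNV libraries, Top2a in 3 that include CNV cp-asiNRL replicates 1 and 3. Their p-values are therefore not given. Ccna2 was at -0.40 (limma adjusted p = 0.00512) and Pcna at -0.36 (0.0214). Exosc9, which overlaps Ccna2, was also lower with cp-asiNRL, and reads in their shared stretch cannot be assigned to either gene. With library quality weights, limma called these 4 and Tpx2, a spindle assembly factor, at 0.41 (adjusted p = 0.0234), or 17.2% of the 29 against 15% of all genes. Mki67 and Top2a are among these calls, so the shares are not like for like.

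In WT retina, which asks what cp-asiNRL did without laser injury, limma called 0 of the 29 genes, against 0.141% of all genes, and neither voom fit called any, against 6.66% of all genes with sample quality weights. At an unadjusted p of 0.05, 1 of the 29 passed, against 15.3% of all genes. That gene was Mcm3, at 0.633, 0.773 and 0.633 CPM in WT cp-asiNRL and 1.179, 0.699 and 1.025 CPM in WT vehicle, with overlap (log2 change -0.22, SE 0.10, limma adjusted p = 0.31). Mcm4, likewise a helicase subunit, was at 5.63, 5.31 and 5.63 CPM in WT cp-asiNRL and 6.71, 5.78 and 6.45 CPM in WT vehicle, without overlap (log2 change -0.16, SE 0.08, limma adjusted p = 0.339). E2f1 was at 0.326, 0.344 and 0.264 CPM in WT cp-asiNRL and 0.560, 0.434 and 0.410 CPM in WT vehicle, also below without overlap. Ccnb2 was at 2.009, 2.182 and 1.900 CPM in WT cp-asiNRL, above its 1.623, 1.794 and 1.673 CPM in WT vehicle (log2 change 0.17, SE 0.08, limma adjusted p = 0.331). Mki67 had a log2 change of 0.06 (SE 0.19) and Top2a of 0.01 (SE 0.14), with overlapping groups. Without overlap, 4 of the 29 lay above (Tyms, Ccnb2, Kif11 and Cenpf) and 4 below (Mcm4, Mcm5, E2f1 and Kif20a), against 11.0% and 15.8% of all genes. The median log2 change of the 33 genes was 0.014, and of all genes 0.0015.

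The change with cp-asiNRL was then compared between CNV and WT retina, as the difference between the 2 log2 changes. limma called 0 of the 29 genes and 0% of all genes, and neither voom fit called any of the 29. At an unadjusted p of 0.05, 5 of the 29 passed, against 6.21% of all genes. They were Mcm5 (0.36, SE 0.12), Mcm3 (0.34, SE 0.14), Ccne1 (0.32, SE 0.13), E2f1 (0.26, SE 0.11) and Ccna2 (-0.34, SE 0.13), each with a limma adjusted p of 0.788. Without the library labelled replicate 2 of CNV cp-asiNRL, 0 of the 29 were called, against 0.0469% of all genes, and 7 passed an unadjusted p of 0.05 (the same 5 with Mki67 and Top2a), against 15.6% of all genes. Mki67 and Top2a had met the filter only through CNV libraries, so the 7 and that share are not like for like. Mcm5 was below vehicle in each WT cp-asiNRL library and above vehicle in each CNV cp-asiNRL library. The WT vehicle libraries for Mcm5 held 2.492 to 2.715 CPM and the CNV vehicle libraries 1.794 to 2.318 CPM, without overlap, although that comparison missed the threshold (limma adjusted p = 0.574).

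**Figure D4:**
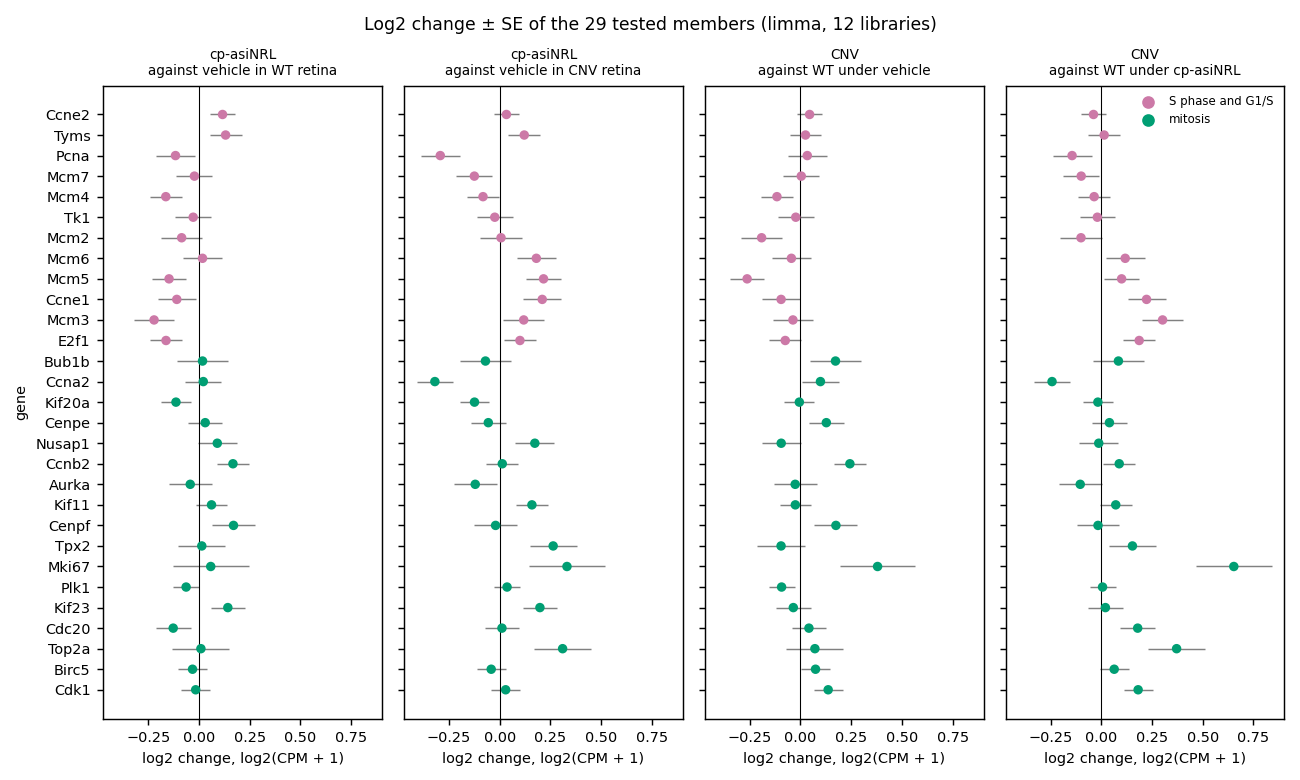
Log2 change ± SE (x axis, on the log2(CPM + 1) scale) of the 29 tested genes in 4 comparisons; S phase and G1/S genes are pink and mitosis genes green, each ordered by mean reads. Mki67 has the largest change of these genes for CNV against WT under both injections, 0.38 with vehicle and 0.65 with cp-asiNRL, and no gene passed an adjusted p of 0.05.

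Other genes of the cycle gave no call with all 12 libraries. limma called 0 of 26 tested other mitosis genes, 0 of 30 other replication genes, 0 of 12 G1 cyclins and kinases and 0 of 17 inhibitors in each comparison. Over all genes the share called was 0% to 0.141%, so lists of this size would hold few or no calls in any case. Ccnd2, a D-type cyclin that couples growth signals to the cycle, was at 1.98, 2.50 and 2.25 CPM in CNV vehicle and 1.005, 1.265 and 0.785 CPM in WT vehicle. These groups did not overlap, at a ratio of 2.21 (limma adjusted p = 0.579, unadjusted 0.00784). Cdkn1a, an inhibitor of cyclin-dependent kinases that stress induces, was at 0.567, 0.905 and 0.714 CPM in CNV vehicle and 0.174, 0.283 and 0.324 CPM in WT vehicle. It lay above without overlap at a ratio of 2.80 (limma adjusted p = 0.621). Under cp-asiNRL the CNV and WT groups overlapped for Ccnd2 and for Cdkn1a. Ccnd2 was at 4.05, 1.07 and 2.88 CPM in CNV cp-asiNRL and 1.41, 1.27 and 1.02 CPM in WT cp-asiNRL. Cdkn1a was at 1.24, 0.407 and 1.36 CPM in CNV cp-asiNRL and 0.995, 0.326 and 0.299 CPM in WT cp-asiNRL. Ccnd1, another D-type cyclin, had a log2 change of 0.34 (SE 0.10) for CNV against WT under cp-asiNRL, without overlap (limma adjusted p = 0.211). It was 0.46 (limma adjusted p = 0.00296) when the library labelled replicate 2 of CNV cp-asiNRL was left out. That fit called 17.9% of all genes, so a call there does not set Ccnd1 apart. Uhrf1, which helps to maintain DNA methylation behind the fork, averaged 0.497 CPM in CNV cp-asiNRL and 0.248 CPM in WT cp-asiNRL (limma adjusted p = 0.211, and 0.051 without that library). Under vehicle Uhrf1 was at 0.378, 0.509 and 0.460 CPM in CNV retina and 0.618, 0.529 and 0.427 CPM in WT retina, with overlap. In the laser comparison under vehicle, 0 of the other mitosis genes were higher at an unadjusted p of 0.05 and 1 was lower, and for other replication genes these counts were 0 and 2. They were 1 and 0 for G1 cyclins and kinases and 1 and 0 for inhibitors, against 3.98% higher and 3.69% lower over all genes. Under cp-asiNRL the counts were 0 higher and 3 lower for other mitosis genes, and 1 higher and 5 lower for other replication genes. They were 3 higher and 0 lower for G1 cyclins and kinases and 1 higher and 2 lower for inhibitors, against 9.47% higher and 7.74% lower over all genes.

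Marker genes of several cell types, including types that can divide, were summed in each library. The summed level of 10 microglial markers was 65.95 to 116.2 CPM in CNV cp-asiNRL, 63.05 to 93.16 in CNV vehicle, 56.66 to 74.97 in WT cp-asiNRL and 52.19 to 56.37 in WT vehicle. The summed level of 9 monocyte and macrophage markers was 10.21 to 54.32 CPM in CNV cp-asiNRL, 9.385 to 40.94 in CNV vehicle, 8.373 to 31.38 in WT cp-asiNRL and 7.547 to 7.853 in WT vehicle. Most of the highest sums was a single gene, Lyz2. It was at 40.6 of 54.32 CPM in CNV cp-asiNRL replicate 1 and 21.5 of 40.94 CPM in CNV vehicle replicate 2. CNV cp-asiNRL replicates 1 and 3, which had the most Mki67, had 106.8 and 116.2 CPM of microglial markers, against 65.95 CPM in the library labelled replicate 2. WT cp-asiNRL replicate 1 had 31.38 CPM of macrophage markers and 21.3 CPM of Lyz2, with 8 Mki67 reads and 4 Top2a reads. Of the microglial markers Aif1 and Tmem119 were under 1 CPM on average, and of the macrophage markers Ccr2, Ly6c2, Cd163 and Chil3. All 8 neutrophil and all 9 lymphocyte markers were under 1 CPM. Endothelial markers summed to 172.5 to 211.9 CPM in CNV cp-asiNRL, 159.5 to 199.8 in CNV vehicle, 140 to 162.9 in WT cp-asiNRL and 157.6 to 165.2 in WT vehicle. Most of that sum was Kdr, a VEGF receptor, and the 8 markers without it summed to 52.2 to 56.5 CPM in CNV cp-asiNRL, 50.8 to 59.1 in CNV vehicle, 51.5 to 53.4 in WT cp-asiNRL and 52.4 to 55.4 in WT vehicle. Müller glia markers summed to 1763 to 2275 CPM in CNV cp-asiNRL, 1555 to 2015 in CNV vehicle, 1466 to 1685 in WT cp-asiNRL and 1554 to 1651 in WT vehicle. Within that list members differed: Apoe, which phagocytes also express, was at 386.0, 210.1 and 597.4 CPM in CNV cp-asiNRL and 221.6, 141.3 and 142.4 CPM in WT cp-asiNRL, while Glul, glutamine synthetase, was at 585.6, 713.9 and 533.4 CPM in CNV cp-asiNRL and 665.3, 644.6 and 671.6 CPM in WT cp-asiNRL. Rod markers summed to 12850, 19250 and 10890 CPM in CNV cp-asiNRL, 15530 to 18900 in CNV vehicle, 15760 to 18890 in WT cp-asiNRL and 18340 to 20660 in WT vehicle. The 2 libraries with the most Mki67 thus had the lowest rod sums of the 12. In the same order of groups, astrocyte markers summed to 22.21 to 31, 23.4 to 28.41, 17.45 to 24.39 and 20.22 to 21 CPM. Fibroblast markers summed to 10.92 to 15.13, 11.92 to 17.61, 9.428 to 11.6 and 10.45 to 11.91 CPM. Pericyte and smooth muscle markers summed to 68.41 to 85.61, 71.91 to 83.96, 67.27 to 71.08 and 71.62 to 73.18 CPM. Pigment epithelium markers summed to 23.69 to 36.39, 26.25 to 41.15, 20.49 to 23.47 and 30.49 to 38.37 CPM. Lens and cornea markers summed to 7.616 CPM in CNV cp-asiNRL replicate 1 and 4.764 CPM in CNV vehicle replicate 2, against 2.247 to 3.659 CPM in the other 10 libraries. The part of these cells in the values of Mki67 and Top2a was not tested, and in bulk tissue more dividing cells and more RNA per cell cannot be told apart.

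**Figure D5:**
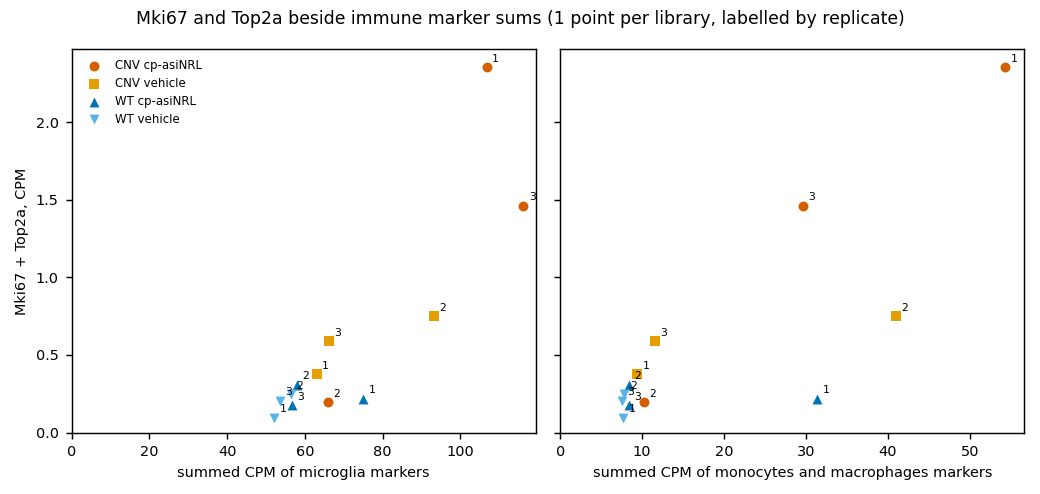
Mki67 plus Top2a (y axis, CPM) against the summed CPM of microglial markers (left) and of monocyte and macrophage markers (right), with 1 point per library labelled by replicate. CNV cp-asiNRL replicates 1 and 3 are highest on the y axis at 2.356 and 1.461 CPM, while WT cp-asiNRL replicate 1 has 0.217 CPM at 31.38 CPM of macrophage markers. Lyz2 alone made 21.3 CPM of that last sum.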

How the data were processed

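Retinal RNA was sequenced in 12 libraries from a strand-marked polyadenylated RNA kit, per the labels' protocols. The submitters' processing notes name HISAT2 2.1.0, featureCounts 1.6.0 and mm10; the coordinates in the table are GRCm39. The authors' deposited values, named FPKM in the header, are a signal: multiplied by gene length, all 482424 were whole within 1e-06, so they are reads per base of gene span (introns included) and are not scaled to library total. Whether intronic reads were counted, and whether counting used strand, is not given in the sources used here. Columns with N-I in their names were assigned to WT by exclusion, the others being named CNV.

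Reads were recovered as signal times length and scaled by the trimmed mean (trims of 30% and 5%). Kept were 25619 genes that had 15 or more reads over all libraries and, in 3 or more of them, the CPM that 10 reads give at median size. The trend method of limma 3.58.1 (R 4.3.3) was applied to log2(CPM + 1) in a model of 4 group means, with Benjamini-Hochberg adjustment. This scale understates changes of low genes. Nrl was also compared by exact permutation test. The procedure was tested on simulated data. Replicates of a group were not copies of each other. Promoters came from RefSeq.

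The 33 genes, the other gene lists and the cell type markers were chosen with earlier results of these data known. Values are given for 10 chosen genes (Mki67, Top2a, Ccnb1, Cdk1, Aurkb, Rrm2, Mcm5, Pcna, Ccne1 and E2f1), every called gene, the 5 smallest p-values per comparison, and up to 2 per other list; Bub1, Bub1b, Kif11 and others that complete a small count or range were named after their values were seen, and not every gene of the rule is printed. Alternatives covered scaling, filter, pseudocount, which libraries entered, the replicate block, quality weights, voom, gene span, overlapping genes and leaving out each library; a median over genes with a mean of at least 50 reads, an endothelial sum without Kdr, and counts and ratios without 1 library were added after seeing the data.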

Additional observations from a re-analysis of the deposited data

Results flagged for a closer look

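Mcm5 stood out because its cp-asiNRL libraries lay below vehicle in WT retina and above vehicle in CNV retina, without overlap, although neither comparison passed an adjusted p of 0.05. With cp-asiNRL its log2 change was -0.147 in WT retina and 0.216 in CNV retina, each against vehicle. For CNV against WT it was -0.263 under vehicle and 0.1 under cp-asiNRL. The tested difference between the cp-asiNRL changes was 0.36 (SE 0.12), with an unadjusted limma p of 0.00841 and an adjusted p of 0.788. It ranged over 0.305 to 0.427 when each library was left out, with adjusted p-values of 0.213 to 0.998.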

How the results depend on the processing

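Over 13 alternatives and 12 fits that each left out 1 library, 36 of 1657 changes of single members took the other sign and 27 passed an adjusted p of 0.05; with no call in the 12-library fit, none could be lost. Members called in the other fits were 5 (library quality weights) and 3 (voom with sample quality weights) for cp-asiNRL against vehicle in CNV retina, and 5 and 4 for CNV against WT under cp-asiNRL; leaving out 1 library gave 0 to 4 and 0 to 6, with every call seen only without the library labelled replicate 2 of CNV cp-asiNRL. Genes called over the table for cp-asiNRL in WT retina (36) were 19 with total count scaling, 19 with median-of-ratios scaling, 0 with no filter, 2245 with only the libraries of the comparison, 1688 with quality weights, 3 with voom, 1707 with weighted voom, 4 with the gene span trend removed and 1 to 773 without 1 library. For cp-asiNRL in CNV retina (12) they were 6 with total count scaling, 3 with no filter, 0 with its own libraries only, 3855 with quality weights, 2917 with weighted voom and 0 to 4481 without 1 library. For CNV against WT under vehicle (0) they were 169 with its own libraries only, 45 with quality weights, 34 with weighted voom and 0 to 74 without 1 library, and under cp-asiNRL (0) they were 5098, 4405 and 0 to 4571 for the last 3 of these; for the difference, leaving out 1 library gave 0 to 12. The median log2 change of the members for cp-asiNRL in WT retina was -0.0024 with the span trend removed, -0.0223 over members with a mean of at least 50 reads (an alternative chosen after seeing the data) and -0.0209 to 0.0214 without 1 library. For cp-asiNRL in CNV retina it was 0.0753 with a pseudocount of 0.1, 0.2065 with weighted voom, 0.0065 over members of at least 50 reads and 0.032 to 0.0641 without 1 library; for CNV against WT under vehicle it was -0.0068 to 0.0305 without 1 library. For CNV against WT under cp-asiNRL it was 0.0569 with total count scaling, 0.0619 with the pseudocount of 0.1, 0.0509 with quality weights, 0.0919 with voom, 0.1349 with weighted voom, 0.052 over members without an overlapping gene, -0.0124 over members of at least 50 reads and 0.0143 to 0.0527 without 1 library. For the difference it was 0.1075 with the pseudocount of 0.1, 0.0758 with quality weights, 0.0999 with voom, 0.1826 with weighted voom, -0.0105 over members of at least 50 reads and 0.013 to 0.063 without 1 library. Changes of the other sign, none of them called, were Mcm4 (0.003) and Ccne2 (0.005) with total count scaling for CNV against WT under cp-asiNRL, Mcm2 in CNV retina with its own libraries (-0.003), quality weights (-0.061) and weighted voom (-0.065), Mki67 in the difference with voom (-0.066), and Cdk1 (0.01) and Tpx2 (-0.015) in WT retina with the span trend removed. Without 1 library, sign changes gave these ranges. In WT retina with cp-asiNRL they were Cdk1 -0.057 to 0.016, Ccna2 -0.046 to 0.092, Tpx2 -0.066 to 0.111 and Top2a -0.019 to 0.04. In CNV retina with cp-asiNRL they were Cdk1 -0.025 to 0.1, Mcm2 -0.06 to 0.071 and Ccnb2 -0.014 to 0.05. For CNV against WT under vehicle they were Mcm3 -0.139 to 0.042, Ccne2 0 to 0.099, Pcna -0.013 to 0.101 and Kif23 -0.107 to 0.05, and under cp-asiNRL Kif23 -0.052 to 0.077. For the difference they were Cdk1 -0.009 to 0.116 and Kif23 -0.03 to 0.127. The causes were not tested. The replicate numbers did not pair the libraries (deviations of same-numbered libraries correlated at -0.521 to 0.307, over 0.1 in 4 of 18 pairs); with the replicate block, 1 gene was called for cp-asiNRL in WT retina and 4 in CNV retina, and 0 members. Depth limits 14 members with a mean under 50 reads, where a few reads move a CPM widely.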
